A study of Mus musculus with 6 samples.

Results

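Monocytes are blood-borne myeloid cells that enter skin and can there take on macrophage or dendritic traits. Conventional dendritic cells carry antigen on MHC class II molecules to T cells, and dermal type 2 dendritic cells and monocyte-derived cells share many of their transcripts. Resident dermal macrophages, in contrast, are known for complement C1q, scavenger receptors and the folate receptor encoded by Folr2. The cells described here are the monocyte and dendritic-like myeloid cells of a single-cell RNA-seq series on mouse back skin, referred to below as mono/DC-like cells and, in the plots, as members.

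Mono/DC-like cells were chosen by their own transcripts. A cell was taken when it had a UMI (a unique molecular identifier, 1 counted transcript) of at least 2 of the pan-myeloid genes Tyrobp, Fcer1g and Laptm5, of at least 4 of the 8 genes Lyz1, Il1b, Ear2, Clec4e, H2-DMa, H2-DMb1, H2-Eb1 and H2-Ab1, and of at most 1 of the 6 macrophage genes C1qa, Pf4, F13a1, Folr2, Cd209f and Cbr2. The rule found 1029 of 20941 cells that had 200 to 5000 genes and under 10% mitochondrial UMIs. They were 29.8% of the 3451 myeloid cells, that is, of cells with at least 2 pan-myeloid genes.

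The series holds 6 libraries of dorsal skin cells, sorted for tdTomato after tamoxifen at 200 µg per g on postnatal day (PD) 17. WT telogen (PD20, 2 libraries) and WT anagen (PD32, 2 libraries) mice carried tdTomato, Cdh5-CreERT2 and Krt14-H2BGFP on a mixed C57BL/6;CD1 background. Alk1 KO telogen mice (PD25, 2 libraries) carried Alk1 flox/flox, tdTomato and Cdh5-CreERT2 on C57BL/6, so the KO differed from WT telogen in age, strain and the Krt14-H2BGFP allele as well as in Alk1 (gene symbol Acvrl1, a receptor of the TGF-beta family), and these cannot be told apart. Telogen is the resting and anagen the growth phase of the hair cycle. The genotype field of the KO samples reads wild type while their titles and descriptions name the KO, and the titles were followed here. The Cdh5 promoter drives Cre in endothelial cells. The authors reported Cdh5 in some other cell types too, and described the immune clusters of the sort as Cdh5-negative contaminants. The mono/DC-like cells had Cdh5 at 5.01 to 46.9 CPM (counts of the summed cells scaled to 1000000 UMIs). Endothelial cells of the same libraries had it at 512 to 769 CPM, and recombination in the mono/DC-like cells was not tested.

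The cells were unevenly spread over the libraries. WT telogen S1 and S2 held 284 and 548 of them, WT anagen S1 and S2 held 118 and 35, and the KO libraries S1 and S2 held 9 and 35. Their summed UMIs were 5266591, 7576873, 2001875, 511913, 159687 and 598981 in the same order, so the KO values rest on far fewer molecules than the telogen values. The median mono/DC-like cell had 15176 UMIs, against 12576 in macrophages (myeloid cells with at least 3 of the 6 macrophage genes, 1433 cells) and 5164 in endothelial-gated cells (at least 4 endothelial genes and no pan-myeloid gene). KO S1 stood apart: across 6309 genes its profile correlated with the other 5 libraries at r of 0.716 to 0.774, while the WT telogen pair reached 0.978, as a description over genes of libraries that differ in depth. Between any 2 libraries 2 to 13 cell barcodes were shared, and no shared barcode had profiles correlated above 0.95.

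Sex-linked transcripts differed between libraries of the same group. WT telogen S1 had 4148 Xist and 0 Ddx3y UMIs in the mono/DC-like cells, WT telogen S2 had 0 Xist and 598 Ddx3y UMIs, both anagen libraries had Ddx3y (170 and 32 UMIs) with 1 and 0 Xist UMIs, and both KO libraries had Xist (40 and 339 UMIs) and 0 Ddx3y. Sex is therefore mixed within WT telogen and differs between the anagen and KO groups, and its part in the comparisons was not tested.

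Promoter sequences of a few MHC class II and cell cycle genes are given first. RefSeq promoter windows on GRCm38.p6, from 250 bases before to 50 after the gene start, were searched on both strands. The MHC class II genes share an upstream Y box, and its letters CTGATTGG occurred in 4 of the 10 list genes with a window (H2-Aa, H2-Eb1, H2-Eb2 and H2-Oa) and in 4.1% of all 32851 windows. H2-Aa and H2-Eb1 encode chains of the peptide-presenting molecules and H2-Oa a chain of a modulator of peptide loading. The motif is in capitals in these 100-base stretches, read along the gene strand from chr17:34287821-34287920 (minus), chr17:34305759-34305858 (plus) and chr17:34092287-34092386 (plus).
H2-Aa: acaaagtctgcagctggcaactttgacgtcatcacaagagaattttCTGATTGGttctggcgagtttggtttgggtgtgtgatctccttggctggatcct
H2-Eb1: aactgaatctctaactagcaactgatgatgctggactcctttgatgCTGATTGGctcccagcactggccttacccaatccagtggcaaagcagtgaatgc
H2-Oa: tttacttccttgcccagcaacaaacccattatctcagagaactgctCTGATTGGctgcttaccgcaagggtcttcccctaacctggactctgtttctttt

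Genes of mitosis often carry a cell cycle genes homology region near their start, with the core letters TTTGAA. These letters, or TTCAAA where the motif lies on the other strand, were found in the windows of 7 of the 12 cell cycle genes that had one (Ccnb2, Cdk1, Cenpf, Hmgb2, Mki67, Top2a and Ube2c) and in 17.9% of all windows. The windows of Ccnb2 (chr9:70421505-70421604, minus), Cdk1 (chr10:69352875-69352974, minus), Top2a (chr11:99024160-99024259, minus) and Ube2c (chr2:164769853-164769952, plus) are shown because these genes were lower in the KO libraries below. A match is a description of the letters and was not tested as a binding site.
Ccnb2: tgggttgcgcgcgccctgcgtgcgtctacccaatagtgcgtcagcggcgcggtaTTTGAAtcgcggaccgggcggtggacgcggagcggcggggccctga
Cdk1: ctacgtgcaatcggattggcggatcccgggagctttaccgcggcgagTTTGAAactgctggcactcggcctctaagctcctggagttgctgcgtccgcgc
Top2a: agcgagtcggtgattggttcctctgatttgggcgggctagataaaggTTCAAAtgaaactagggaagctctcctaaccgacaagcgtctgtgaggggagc
Ube2c: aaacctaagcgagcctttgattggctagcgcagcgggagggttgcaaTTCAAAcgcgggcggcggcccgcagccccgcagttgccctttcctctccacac

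The genes of the rule are a description, since they chose the cells. Il1b, which encodes the inflammatory cytokine IL-1 beta, stood at 5287 and 4936 CPM in WT telogen, 4642 and 4620 CPM in anagen, and 12230 and 6384 CPM in the KO. Lyz1, a lysozyme gene, ranged more widely, from 574 CPM in anagen S2 to 5005 CPM in anagen S1. Ear2, an eosinophil-associated ribonuclease gene also transcribed in monocytes, was at 148 and 229 CPM in telogen, 320 and 113 CPM in anagen, and 946 and 948 CPM in the KO. Clec4e, encoding the pattern receptor Mincle, was at 663 and 596 CPM in telogen, 355 and 133 CPM in anagen, and 1196 and 1077 CPM in the KO. H2-Eb1 was between 5676 and 14758 CPM in all 6 libraries, without an order by group. Of the members, 56 had exactly 4 of the 8 genes and 213 had all 8, and 69 cells with exactly 3 lay just outside. Among the members 503 had no macrophage gene and 526 had 1, and 166 cells with 2 were left out by that limit.

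The label was then checked on genes that the rule did not name, as a description of the same cells. Cd209a, encoding a C-type lectin of dermal type 2 dendritic and monocyte-derived cells, averaged 514 ± 166 CPM (SD, n = 6 libraries) against 80.5 CPM in macrophages. Ccr2, the chemokine receptor of monocytes, averaged 222 ± 66.4 CPM (SD, n = 6) against 93.0 CPM. Other genes of the same lists went the other way, with Clec10a, a lectin gene of the type 2 dendritic cell list, at 186 CPM against 1080 CPM in macrophages, and Hp, haptoglobin, of the classical monocyte list, at 8.63 CPM against 26.1 CPM. The macrophage genes C1qb and C1qc averaged 17.0 and 2.82 CPM against 3115 and 1970 CPM. Of defining markers of other lineages, Krt14 (keratinocytes) was at or below 0.53 CPM in all 6 libraries, Cd3g (T cells) reached 7.0 CPM in WT telogen S2 and S100a8 (neutrophils) reached 125 CPM in anagen S2. The 12 genes of the T and NK cell list summed to 404 CPM on average against 25.4 CPM in macrophages, most of it from Il7r, an interleukin receptor gene, at 353 CPM. Gzmc, a granzyme gene, was at 76.0 CPM in WT telogen S2 and at or below 0.19 CPM in the other 5 libraries. As an alternative, cells with a UMI of 2 or more of 12 marker genes of other cell types were left out, which took the mono/DC-like cells from 284 to 236 in WT telogen S1, from 548 to 465 in WT telogen S2, from 118 to 101 in anagen S1, from 35 to 25 in anagen S2, from 9 to 7 in KO S1 and from 35 to 34 in KO S2. The 12 genes include Cd3g and Pecam1 but neither Il7r nor Gzmc, and the part of cells with Il7r or Gzmc in the results was not tested. The plot of levels shows Cd209a and Ccr2 by library, beside rule genes and markers of single states.

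**Figure D1:**
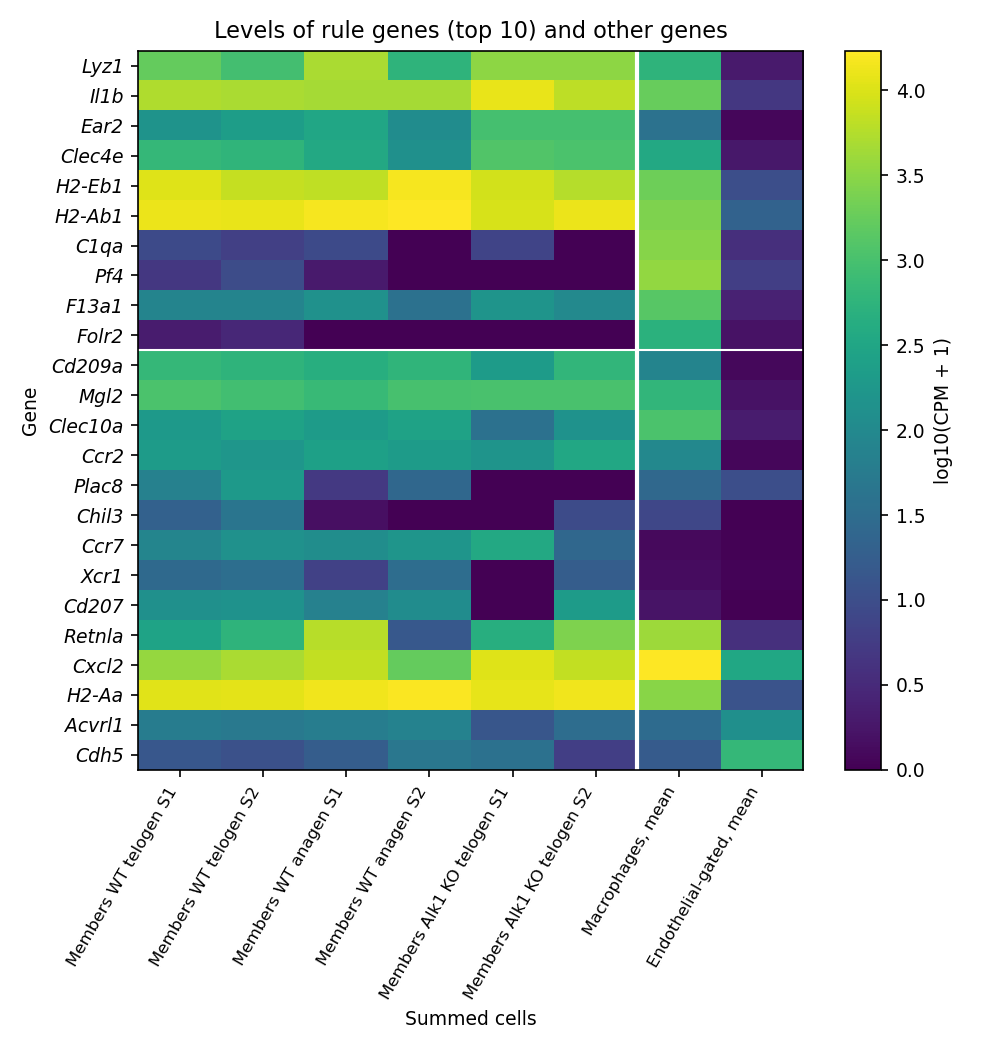
Heat map of log10(CPM + 1) for genes in rows, with the 6 libraries of mono/DC-like cells in columns, followed by the mean of macrophages and of endothelial-gated cells. The first 10 rows are genes of the rule. Cd209a is brighter in the mono/DC-like libraries than in macrophages, C1qa, Pf4 and Folr2 are bright in macrophages alone, and Cdh5 is bright in endothelial-gated cells.

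Besides the rule genes, the mono/DC-like cells differed from macrophages of the same libraries by a recurring set of genes, given as a description because both populations were defined from the same UMIs. Of genes with at least 100 CPM in the higher population, 795 genes kept 1 sign in all 6 libraries. This count was not set against the number that would do so without a difference. Ccr7, the receptor that guides dendritic cells to lymph vessels, averaged 147 CPM against 0.296 CPM in macrophages. Ramp3, a receptor-modifying protein gene, averaged 305 CPM against 8.15 CPM. Il1r2, the decoy receptor for IL-1, averaged 256 CPM against 10.1 CPM, and Il7r, the interleukin-7 receptor gene, 353 CPM against 18 CPM. Nr4a3, an orphan nuclear receptor gene, averaged 561 CPM against 24.4 CPM, with KO S1 at 1403 CPM and the other 5 libraries at 340 to 465 CPM. The other genes with the highest ratios were Adam23, P2ry10, Klrb1b, Gpr171, Ccl17, Apod and Mmp12. Of these, Ccl17 passed the 100 CPM limit only through the KO, at 764 CPM in S1 and 170 CPM in S2. In the WT libraries it was at 6.49 to 78.0 CPM. On the macrophage side, the chemokine genes Ccl8 and Ccl7 averaged 3941 and 4279 CPM in macrophages against 2.51 and 53.5 CPM in mono/DC-like cells, and Ms4a7, Ccl12, Cd209g, Igf1, Ednrb, Ccl24, Stab1 and Lyve1 also led this side.

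The mono/DC-like cells were not uniform. To compare cells at 1 depth, each was thinned to 3000 UMIs, which left out 29 shallower cells and kept 1000. The following pairs of genes were chosen after the data had been seen. Cd209a and Mgl2, both C-type lectin genes of type 2 dendritic cells, were found together in 45.1% of the cells (exact 95% interval 42.0 to 48.2%, counting error only), in 8.64% of macrophages and in 0% of endothelial-gated cells. Il1b and H2-Aa were found together in 78.7% of the cells, and Ear2 and Retnla, the latter encoding a resistin-like secreted protein of alternatively activated myeloid cells, in 12.1%. Il1b and Ear2 are genes of the rule that chose the cells, so these shares are a description.

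Smaller groups carried genes of other dendritic states. Ccr7 and Fscn1, genes of mature migratory dendritic cells, were together in 20 of 1000 cells (2%), and these had Ccl22 at 2980 CPM and Ccl17 at 1312 CPM, against 16.9 and 34.0 CPM in the other members. Xcr1 and Clec9a, receptor genes of type 1 dendritic cells, were together in 17 cells, with Irf8 at 938 CPM against 79.8 CPM in the rest. Cd207 and Epcam, which mark Langerhans cells, were together in 15 cells. Ly6c2 and Plac8, genes of classical monocytes, were together in 36 cells, with H2-Aa at 2340 CPM against 12230 CPM and Cd14 at 3352 CPM against 1579 CPM in the rest. Without thinning, the shares were 4.5% for Ccr7 and Fscn1, 4.9% for Xcr1 and Clec9a, 5.8% for Ly6c2 and Plac8 and 63.4% for Cd209a and Mgl2, so the shares depend on depth.

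**Figure D2:**
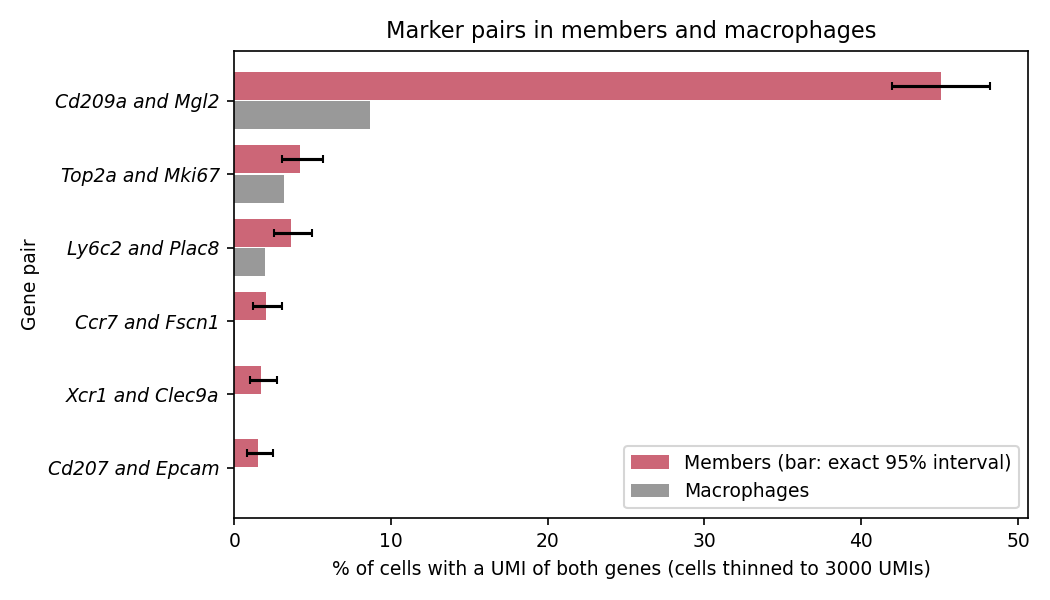
Bars give the percent of cells with a UMI of both genes of a pair after thinning to 3000 UMIs per cell, for 1000 mono/DC-like cells (red, with exact 95% intervals) and 1343 macrophages (grey). Cd209a with Mgl2 is at 45.1%, and the Ccr7, Xcr1, Cd207 and Ly6c2 pairs each mark under 4% of the mono/DC-like cells.

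These states were not evenly found in the libraries. All 36 cells with Ly6c2 and Plac8 came from WT telogen (7 of 278 in S1 and 29 of 536 in S2), and 0 of 146 anagen and 0 of 40 KO cells had the pair. The telogen shares were 2.52% and 5.41%. With the cells of a group pooled and for counting error only, 0 of 146 allows a share of up to 2.05% and 0 of 40 up to 7.5%, and the difference between groups was not tested. Ear2 and Retnla were together in 8.27% and 10.1% of cells in telogen, 24.6% and 0% in anagen, and 25% and 43.8% in the KO. Retnla itself was at 282 and 566 CPM in telogen, 6077 and 13.7 CPM in anagen, and 457 and 2606 CPM in the KO. The 2 anagen libraries thus lie on either side of telogen for Retnla and for Lyz1. In KO S1, with 9 cells, Ccl22 was at 1710 CPM against 0 CPM in KO S2, and the Ccr7 and Fscn1 pair was found in 1 of its 8 thinned cells.

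The first comparison asked how the share of mono/DC-like cells in the tdTomato sort differed with the hair cycle and with Alk1 loss. They made up 8.96% and 11.7% of kept cells in WT telogen, 2.74% and 0.686% in anagen, and 0.525% and 1.79% in the KO. Both telogen libraries lay above the other 4, while anagen and KO overlapped: telogen averaged 10.3 ± 1.93% (SD, n = 2), anagen 1.71 ± 1.46% and KO 1.16 ± 0.892%. The exact two-sided permutation test gave p = 0.3333 for each comparison, the smallest p that 2 against 2 libraries allow. All myeloid cells moved in the same way, at 36.0% of kept cells in telogen, 4.06% in anagen and 4.1% in the KO. These shares depend on how many myeloid cells each sort let through, which was not tested.

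**Figure D3:**
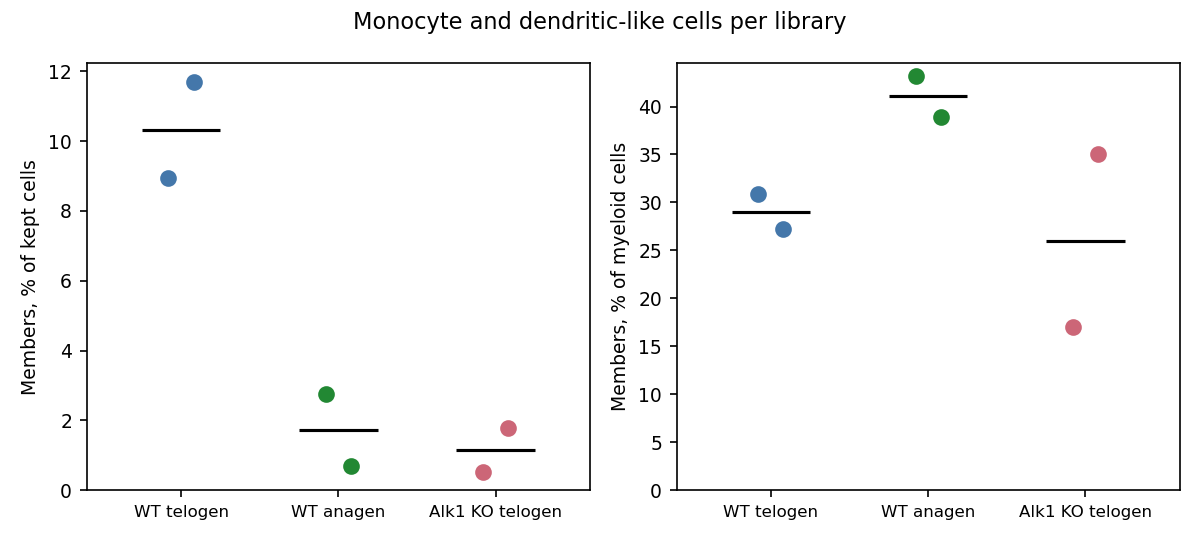
Each point is 1 library, and black lines are group means. On the left, mono/DC-like cells in percent of all kept cells average 10.3% in WT telogen against 1.71% in anagen and 1.16% in the KO, and on the right, in percent of myeloid cells, the KO libraries at 17% and 35% lie on either side of the telogen libraries.

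Within the myeloid cells the libraries were ordered differently. Mono/DC-like cells were 30.8% and 27.2% of myeloid cells in telogen, 43.2% and 38.9% in anagen, and 17% and 35% in the KO. The anagen libraries lay above both telogen libraries (mean 41.1 ± 3.07% against 29.0 ± 2.56%, SD, n = 2 each, exact permutation p = 0.3333). The KO libraries lay on either side of the telogen libraries (mean 26 ± 12.7%, SD, n = 2, exact permutation p = 1).

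For gene levels, UMIs were summed per library and fitted by edgeR's quasi-likelihood test with Benjamini-Hochberg adjustment. A gene was called at an adjusted p under 0.05 and a fold above 1.3. The p-values measure the spread between these libraries only.

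Between anagen and telogen, 0 of 9490 genes were called (0% in either direction), while 1138 had an unadjusted p under 0.05, and DESeq2 called 63 genes higher and 12 lower. Without the filter on low counts edgeR called 302 higher and 193 lower. Higher in anagen at an unadjusted p under 0.05 were 6.91% of genes, and lower were 5.08%. The genes named in this comparison were therefore not called by the main test, and the lowest adjusted p among them, reached by Wfdc17 among others, was 0.134.

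Transcripts of the cell cycle had lower values in anagen. All 13 cell cycle genes had a negative log2 fold change (median -1.27, against -0.002 for all genes), 7 of them at an unadjusted p under 0.05, and 0 were called. Pclaf, a replication clamp partner gene, was at 127 and 138 CPM in telogen and 27.0 and 41.0 CPM in anagen. Its log2 fold change was -1.86 ± 0.23 (SE, edgeR adjusted p = 0.134). Tyms, encoding thymidylate synthase, was at 42.3 and 55.2 CPM against 10.5 and 11.7 CPM, with a log2 fold change of -1.96 ± 0.28 (SE, edgeR adjusted p = 0.154). Mki67, the proliferation marker Ki67, was at 91.1 and 87.5 CPM against 32.0 and 41.0 CPM. For these 3 genes both anagen libraries lay below both telogen libraries. Over the whole list the lower level was mainly that of anagen S1, since the summed level was 1611 and 1565 CPM in telogen, 560 CPM in anagen S1 and 1328 CPM in anagen S2. Birc5, a mitotic survivin gene, was at 60.2 and 64.1 CPM against 14.5 and 58.6 CPM, and Hmgb2, a chromatin protein gene, at 259 and 326 CPM against 112 and 322 CPM.

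By cell, the share with at least 3 of the 13 cell cycle genes at 3000 UMIs was below telogen in both anagen libraries, unlike the summed level, which in anagen S2 was near that of telogen. The share was 23.7% and 19.0% in telogen, 2.63% and 6.25% in anagen, and 0% and 0% in the KO. The anagen shares rest on 3 of 114 cells in S1 and 2 of 32 in S2, so counting error is wide, above all in S2. With the KO cells pooled and for counting error only, 0 of 40 allows up to 7.5%, above both anagen shares. In macrophages of the same libraries the share was 22.7%, 18.8%, 2.8%, 0%, 0% and 0%. In endothelial-gated cells it was 15.0% and 13.1% in telogen, 12.7% and 8.45% in anagen, and 4.76% and 5.03% in the KO.

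**Figure D4:**
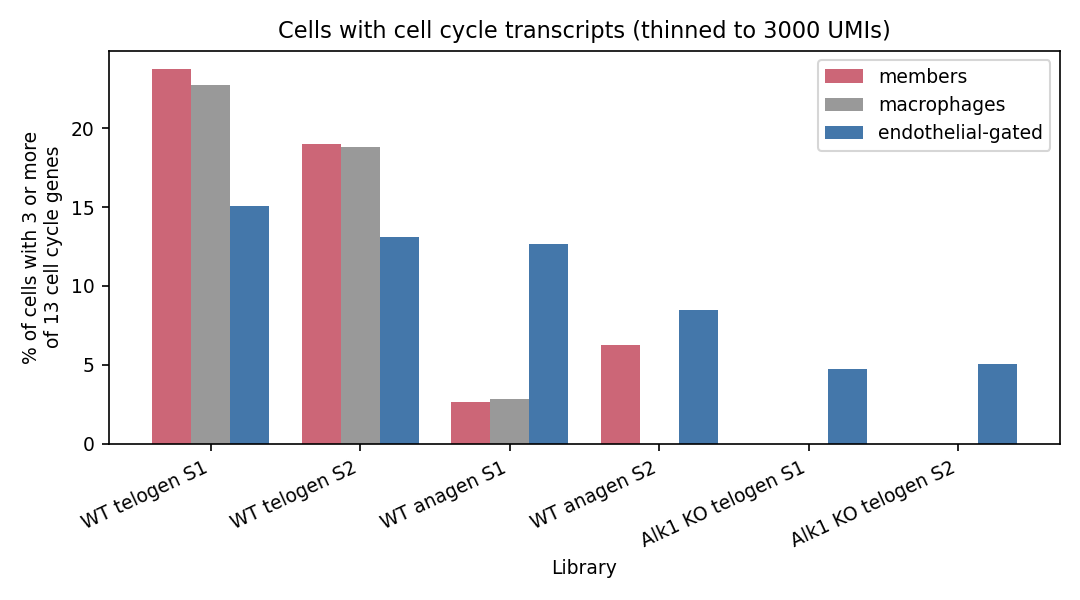
Percent of cells with at least 3 of 13 cell cycle genes after thinning to 3000 UMIs, by library, for mono/DC-like cells (red), macrophages (grey) and endothelial-gated cells (blue). The mono/DC-like cells are at 23.7% and 19.0% in WT telogen, at 2.63% and 6.25% in anagen and at 0% in both KO libraries.

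Some monocyte genes were among those with the smallest p on the lower side. Of 13 classical monocyte genes tested, 9 had negative log2 fold changes, 5 of them at an unadjusted p under 0.05, and the median was -0.10. Chil3, encoding a chitinase-like protein of monocytes, had 424 UMIs in telogen (19.4 and 42.5 CPM) and 1 UMI in anagen (0.50 and 0 CPM), a pooled ratio of 0.012 (exact 95% interval 0.000304 to 0.0675, counting error only). With at least 3 in place of 4 of the 8 rule genes its log2 fold change turned from -5.98 to 0.25. Slpi, a protease inhibitor gene, had 718 UMIs in telogen (41.2 and 66.1 CPM) and 3 in anagen (0 and 5.86 CPM). Of 16 pattern recognition genes tested, 8 had positive and 8 negative log2 fold changes, 2 of the latter at an unadjusted p under 0.05. Msr1, the scavenger receptor A gene, was at 24.5 and 30.9 CPM against 5.99 and 5.86 CPM, and Clec4d, the partner lectin of Clec4e, at 105 and 121 CPM against 36.5 and 29.3 CPM. Lig1, Idi1, Gpr141 and Hist1h1b completed the 10 lowest by p.

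On the higher side stood Klf2 and Klf4, transcription factor genes of quiescent and monocytic cells. Klf2 was at 39.7 and 56.9 CPM in telogen and 136 and 168 CPM in anagen, a log2 fold change of 1.83 ± 0.23 (SE, edgeR adjusted p = 0.134). Klf4 was at 119 and 129 CPM against 294 and 279 CPM, a log2 fold change of 1.41 ± 0.16 (SE, edgeR adjusted p = 0.134). Apod, a lipocalin gene, was at 112 and 144 CPM against 310 and 412 CPM. Wfdc17, Snhg8, Hcst, Crip1, Hspb1, Igfbp7 and Arhgef10 were the other genes of smallest p on this side. Some of these genes had higher CPM in endothelial-gated cells. Klf2 was there at 1507 and 1402 CPM in telogen and 1350 and 1212 CPM in anagen. Klf4 was there at 1140 and 996 CPM against 786 and 761 CPM, and Hspb1 at 1417 and 1128 CPM against 1835 and 1730 CPM. Apod and Crip1 had lower CPM there than in the mono/DC-like cells. The part of free endothelial RNA was not tested. Igfbp7 was also at 7719 and 7003 CPM in endothelial-gated cells of anagen against 3738 and 3570 CPM in telogen, and 10 of 11 endothelial genes tested in the mono/DC-like cells had positive log2 fold changes (median 1.61), with summed levels of 157 and 109 CPM in telogen and 194 and 676 CPM in anagen. The most abundant of them was Pecam1, and none was at 0 over all libraries. Without the cells showing markers of other cell types, the log2 fold change was 2.0 for Igfbp7 (2.39 with them), 2.33 for Klf2 and 1.57 for Klf4, and without likely doublets, which took out 16.1% and 25.7% of the anagen cells, it was 1.75 for both Igfbp7 and Klf2. In both settings 0 genes were called, as with all cells, with 1066 and 1136 genes at an unadjusted p under 0.05.

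Genes of MHC class II presentation that the rule did not use were mostly higher in anagen, 8 of 9 tested, 6 of them at an unadjusted p under 0.05 and 0 called (median log2 fold change 0.72). They share a pathway with the 4 class II genes that chose the cells, which limits how far they are independent of the rule. H2-Aa was at 11190 and 11525 CPM in telogen and 13996 and 16282 CPM in anagen, and Cd74, the invariant chain, at 30055 and 25747 CPM against 33431 and 47182 CPM. The log2 fold changes were 0.61 ± 0.10 for H2-Aa (SE, edgeR adjusted p = 0.154) and 0.72 ± 0.16 for Cd74 (SE, edgeR adjusted p = 0.233). Ctss, encoding the protease that trims the invariant chain, was at 1220 and 1147 CPM against 1795 and 1703 CPM. Cytosolic ribosomal protein genes were higher for 78 of 90 tested (36 at an unadjusted p under 0.05, median 0.28). Lists of NF-kB feedback genes, costimulation, pattern recognition and lysosomal genes had medians between -0.01 and 0.03. Of the 18 immediate-early and heat shock genes, which also respond to cell handling, 15 were higher in anagen, 9 of them at an unadjusted p under 0.05 and 0 called, with a median of 0.53. In macrophages 3 of these 18 were called higher, with a median of 0.68, and the part of handling in either was not tested.

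In macrophages of the same 4 libraries the same test called 246 genes higher (2.55%) and 73 lower (0.756%) in anagen, with 9 of 13 cell cycle genes called lower. H2-Aa and Cd74 were called higher there, with log2 fold changes of 2.20 and 2.21. The test of the difference between the populations called 142 of 10759 genes (1.32%). Il6, encoding interleukin-6, was at 113 CPM in telogen and 123 CPM in anagen in mono/DC-like cells, and at 28.8 and 418 CPM in macrophages. The difference of the log2 fold changes was -3.43 ± 0.35 (SE, edgeR adjusted p = 0.000101), and of the 142 genes 11 were called whichever library was left out.

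Between the KO and WT telogen, 144 of 9028 genes (1.6%) were called, 65 higher (0.72%) and 79 lower (0.875%). At an unadjusted p under 0.05, 8.15% were higher and 12.6% lower. These calls rest on 44 KO cells. Leaving out KO S1 raised the count to 501 higher and 660 lower, leaving out KO S2 gave 226 higher and 360 lower, and leaving out WT telogen S1 or S2 gave 39 higher with 54 lower and 39 higher with 42 lower. Of the 144 genes, 42 were called whichever library was left out. Ear2, a gene of the rule, is among these 42, so the counts include tests on genes that chose the cells. At equal cells and depth 359 genes could be tested and 16 were called. Of the 144 genes, 28 were among those tested and 8 of them were called. With all 6 libraries in 1 fit, 28 of 7599 genes were called.

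The cell cycle genes led the lower side. Of 13 tested, 10 were called lower and 0 higher (median log2 fold change -5.32, or -3.23 with genes at 0 KO counts set to a floor of 3 counts over the group, against -0.08 for all genes). Birc5, encoding survivin, was at 60.2 and 64.1 CPM in telogen and had 0 UMIs in the KO, at least 15.8-fold lower (edgeR adjusted p = 0.0143). Ccnb2, encoding cyclin B2, had 478 UMIs in telogen and 0 in the KO, at least 9.41-fold lower (edgeR adjusted p = 0.032). Cdk1 and Rrm2 also had 0 UMIs in the KO, at least 6.64-fold and 7.48-fold lower. Unlike the other called genes of the list, Cdk1 and Rrm2 were not among those called whichever library was left out. Top2a, encoding topoisomerase II alpha, was at 82.2 and 80.2 CPM against 0 and 1.67 CPM, with 1 KO UMI and a pooled ratio of 0.0163 (exact 95% interval 0.000411 to 0.0908). Stmn1, Tyms, Ube2c, Pclaf and Hmgb2 were called as well, and so were Hist1h1b, Smc2, Spc24 and Cdca3 outside the list. These 4 genes of replicated chromatin and chromosome division had 0 UMIs in the KO. Cdca3 was likewise not among the genes called whichever library was left out.

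Mki67 did not follow them. It was at 91.1 and 87.5 CPM in telogen and 50.1 and 68.4 CPM in the KO, a log2 fold change of -0.44 ± 0.24 (SE, edgeR adjusted p = 0.349). Tubb5 was at 439 and 365 CPM against 169 and 217 CPM (edgeR adjusted p = 0.0863). Both KO libraries lay below both telogen libraries for these 2 genes, which were not called. In macrophages, 6 of the 13 genes were called lower in the KO.

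Of 16 chemokine genes tested 3 were called lower and 0 higher. By sign, 10 of the 16 had positive log2 fold changes and 6 negative. On the positive side 5 had an unadjusted p under 0.05, and the list median was 0.55. Ccl2, which attracts monocytes, fell from 336 and 332 CPM in telogen to 18.8 and 56.8 CPM in the KO (log2 fold change -2.83 ± 0.37, SE, edgeR adjusted p = 0.0178). Ccl7, a related monocyte attractant, fell from 95.7 and 87.1 CPM to 0 and 11.7 CPM. Cxcl3, a neutrophil attractant, fell from 171 and 253 CPM to 18.8 and 40.1 CPM. Cxcl2 was at 3716 and 4876 CPM against 10759 and 6920 CPM (log2 fold change 1.06 ± 0.23, SE, edgeR adjusted p = 0.0604). In macrophages Ccl2 was at 7080 and 5740 CPM in telogen and 2525 and 3113 CPM in the KO, and in endothelial-gated cells at 287 and 309 CPM against 70.1 and 60.5 CPM. Cxcl3 was instead at 162 and 198 CPM in telogen macrophages and 140 and 1311 CPM in those of the KO, and the test of the difference between the populations gave -5.06 ± 0.42 on the log2 scale (SE, edgeR adjusted p = 8.16e-05).

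Genes of the interferon response and of the immunoproteasome were on the lower side. Of 21 interferon response genes tested, 3 were called lower, 0 higher and 10 had an unadjusted p under 0.05 on the lower side. Psmb8 and Psmb9, immunoproteasome subunits, were at 477 and 494 CPM and at 123 and 173 CPM in telogen, against 207 and 170 CPM and 31.3 and 31.7 CPM in the KO. Their log2 fold changes were -1.35 ± 0.21 (SE, edgeR adjusted p = 0.032) and -2.17 ± 0.31 (SE, edgeR adjusted p = 0.0217). Ifi27l2a, an interferon-induced gene, fell from 429 and 578 CPM to 213 and 125 CPM. None of these 3 calls held without WT telogen S2, where all 3 log2 fold changes remained negative. Isg15, a ubiquitin-like interferon-induced gene, had a log2 fold change of -0.10 ± 0.23 (SE, edgeR adjusted p = 0.857). Psmb8 was also lower in KO macrophages (called) and stood at 166 and 175 CPM in endothelial-gated cells of telogen against 77.3 and 72.3 CPM in the KO.

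Oxidative phosphorylation genes included 4 called lower of 88 tested and 0 called higher, with a median of -0.50. The 4 were Ndufa12, Ndufab1, Sdhb and Atp5o, subunits or partners of complexes I, II and V. Atp5o was at 283 and 311 CPM against 125 and 114 CPM. The list had lower values in the other populations too, which in endothelial-gated cells was not tested. In macrophages 57 of 88 tested were called lower, with a median of -1.17. In endothelial-gated cells the list summed to 18488 and 18351 CPM in telogen and 14627 and 14209 CPM in the KO, with Atp5o at 215 and 223 CPM against 99.1 and 109 CPM. None of the 4 calls held without WT telogen S1 or without WT telogen S2. Among lipid genes Plin2, a lipid droplet coat gene, fell (97.0 and 133 CPM against 37.6 and 21.7 CPM) and Abca1, the cholesterol exporter gene, rose (91.0 and 65.5 CPM against 244 and 250 CPM, log2 fold change 1.71 ± 0.24, SE, edgeR adjusted p = 0.0217). Pilra, an inhibitory receptor gene, was called lower, at 12.5 and 3.34 CPM (4 UMIs) in the KO against 39.3 and 47.6 CPM (568 UMIs) in telogen. Ighm, the immunoglobulin mu chain gene, was at 18.8 and 5.01 CPM (6 UMIs) in the KO against 52.6 and 55.4 CPM (697 UMIs). Its log2 fold change turned from -2.68 to 0.73 with at least 3 in place of 4 of the 8 rule genes.

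Plac8, of the classical monocyte list, and 2 matrix-related genes were also called lower. Plac8 had 1818 UMIs in telogen mono/DC-like cells (71.6 and 190 CPM) and 0 in the KO, at least 35.8-fold lower (edgeR adjusted p = 0.0449). It was also at 13 and 33.5 CPM in endothelial-gated cells of telogen and at 0.13 CPM in both KO libraries. Macrophages did not share the fall, with Plac8 at 17.0 and 66.0 CPM in telogen and 26.6 and 35.1 CPM (14 UMIs) in the KO. Sparc and Igfbp7, the matrix-related genes, fell from 62.8 and 131 CPM to 6.26 and 5.01 CPM and from 54.7 and 53.7 CPM to 0 in both libraries. In endothelial-gated cells Sparc was at 3151 and 3093 CPM in telogen and 500 and 480 CPM in the KO, and Igfbp7 at 3738 and 3570 CPM against 576 and 460 CPM. Summed fibroblast genes in the mono/DC-like cells were at 164 and 586 CPM in telogen and 37.6 and 16.7 CPM in the KO, with Sparc the most abundant of 8. Without the cells showing markers of other cell types, 72 genes were called higher and 71 lower in the KO. Plac8 was still called there. Sparc (log2 fold change -1.86 against -4.14 with all cells), Igfbp7, Egr1, Jun, Ighm, Ndufab1, Psmb8 and Sdhb lost the call. All of these kept their sign. Without those cells the log2 fold change was 2.28 for Jun, 1.496 for Egr1 and -2.46 for Ighm (-2.68 with all cells). It was -1.21 for Psmb8, -1.19 for Sdhb and -1.14 for Ndufab1. Igfbp7 had 0 KO UMIs with or without those cells. The part of free RNA from other cells was not tested. The calls of Plac8 and Sparc were lost without KO S2. Slpi had 718 UMIs in telogen and 0 in the KO, at least 14.1-fold lower, but its log2 fold change was 0.0303 with at least 3 of the 8 rule genes.

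On the higher side, 1 of 16 cytokine genes, 2 of 18 immediate-early and heat shock genes, 1 of 16 NF-kB feedback genes and 2 of 17 TGF-beta and BMP genes tested were called, and 0 of 9 costimulation and 0 of 14 mature dendritic cell genes. Of the 16 cytokine genes, 10 had negative log2 fold changes, 3 of them at an unadjusted p under 0.05. Their median was -0.66, or -0.52 with genes at 0 counts set to the floor. Il6 rose from 83.7 and 141 CPM to 720 and 476 CPM (log2 fold change 2.41 ± 0.32, SE, edgeR adjusted p = 0.0178). Id2, a regulator needed for dendritic cell development, rose from 1081 and 1087 CPM to 2780 and 3177 CPM (1.5 ± 0.19, SE, edgeR adjusted p = 0.0168). Id3, a related gene, rose from 10.8 and 21.9 CPM to 62.6 and 100 CPM (2.47 ± 0.42, SE, edgeR adjusted p = 0.0363). Id1, the third of these BMP targets, was at 9.11 and 2.38 CPM against 18.8 and 0 CPM and was not called. Jun, Egr1 and Klf4, early-response and differentiation factor genes, and Tnfaip3, which encodes the NF-kB inhibitor A20, were also called higher. Jun was at 70.3 and 90.9 CPM in telogen and 382 and 214 CPM in the KO, and Tnfaip3 at 277 and 282 CPM against 933 and 584 CPM. In endothelial-gated cells of the same libraries Il6 was at 654 and 519 CPM against 499 and 242 CPM, Id3 at 625 and 522 CPM against 620 and 535 CPM, and Tnfaip3 at 95.9 and 88.4 CPM against 79.9 and 77.8 CPM. Other genes had higher values in the KO there as well. Abca1 was at 132 and 155 CPM against 277 and 265 CPM, Egr1 at 1180 and 971 CPM against 1560 and 1480 CPM, Jun at 2505 and 2346 CPM against 2998 and 3159 CPM, and Klf4 at 1140 and 996 CPM against 1183 and 1268 CPM. In macrophages Il6, Id3, Jun, Egr1, Klf4 and Abca1 were called higher too. In the mono/DC-like cells Il6 and Id2 were called whichever library was left out, while Id3, Jun, Egr1, Klf4, Tnfaip3 and Abca1 each lost the call without at least 1 of the libraries.

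Another set of higher genes had like ratios in the 3 populations. Rps27 and Rps27rt, which share near-identical sequence so that reads may be split between them, were at 51.6 and 46.7 CPM and at 30.4 and 39.9 CPM in telogen, against 482 and 461 CPM and 294 and 249 CPM in the KO. The log2 ratio of the group means of Rps27 was 3.26 in mono/DC-like cells, 3.76 in macrophages and 3.44 in endothelial-gated cells. For Rpl9 it was 2.57, 2.51 and 2.54. In all, 13 of 90 ribosomal protein genes tested were called higher and 0 lower, and their median log2 fold change was 0.20. Rps27rt also differed within the WT, at 240 and 82 CPM in anagen. Many of these genes have processed copies elsewhere in the genome, and their values are uncertain where counting could split reads.

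Slc15a2, encoding a peptide transporter, was at 0 in WT telogen. It had 0 UMIs in both WT telogen libraries and 14 and 66 UMIs (87.7 and 110 CPM) in the KO, at least 451-fold higher when telogen is set to 3 counts over the group (edgeR adjusted p = 0.00193). It was not among the genes called whichever library was left out. In anagen it was at 6.99 and 0 CPM. In endothelial-gated cells it was also at 0 CPM in both telogen libraries, at 19.9 and 0 CPM in anagen and at 42.3 and 89.3 CPM in the KO, so it was not particular to the mono/DC-like cells. Strain, age and the KO allele cannot be told apart for it. Wls, Hotairm1, Bloc1s1, Abca6, Fhit, Kazald1 and Lrrc75aos2 were, with Id3, other genes of the largest rises, with 7 to 87 UMIs in the KO. None of them was among the genes called whichever library was left out.

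**Figure D5:**
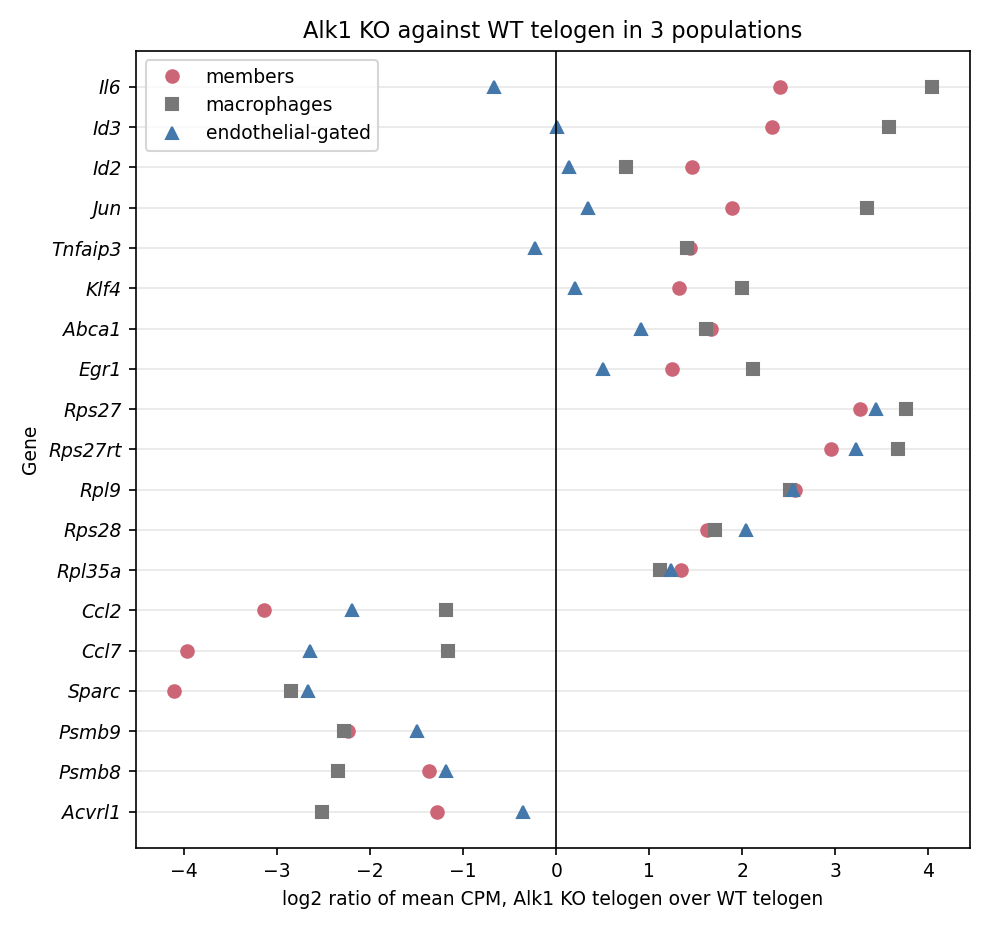
The log2 ratio of mean CPM in Alk1 KO telogen over WT telogen (2 libraries each) for 19 genes, in mono/DC-like cells (red circles), macrophages (grey squares) and endothelial-gated cells (blue triangles). Ribosomal protein genes lie at like values in the 3 populations, while Il6, Id3 and Tnfaip3 lie above 0 in the myeloid populations and at or below 0.01 in endothelial-gated cells. Abca1 (0.92), Egr1 (0.50) and Jun (0.34) lie above 0 in endothelial-gated cells as well.

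The targeted gene was measured in the same cells. Acvrl1 was at 57.9 and 49.9 CPM in telogen, 61.9 and 74.2 CPM in anagen and 12.5 and 31.7 CPM in the KO, from 305, 378, 124, 38, 2 and 19 UMIs. Both KO libraries lay below the 4 WT libraries, but the gene was not called (log2 fold change -0.93 ± 0.35, SE, edgeR adjusted p = 0.191). In macrophages it was at 29.4 and 28.8 CPM in telogen and 6.64 and 3.51 CPM in the KO, and was called lower. In endothelial-gated cells it was at 148 and 125 CPM in telogen and 118 and 95.2 CPM in the KO. A 3' tag count can lie outside the deleted part of a floxed gene, so these levels do not check the deletion. Within the mono/DC-like cells, the 17 with Xcr1 and Clec9a had Acvrl1 at 144 CPM against 52.1 CPM in the others. Of other receptor genes of the family, Bmpr2 averaged 39.2 ± 7.12 CPM and Bmpr1a 0.38 ± 0.47 CPM (SD, n = 6). Of the 17 TGF-beta and BMP genes tested between the KO and telogen, Id2 and Id3 were called higher and 0 lower.

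In macrophages of these 4 libraries, 445 genes were called higher (4.74%) and 669 lower (7.12%) in the KO, from 51 KO cells. MHC class II genes H2-Aa and Cd74 were called lower in macrophages, with log2 fold changes of -1.46 and -1.24, and had 0.22 ± 0.17 (edgeR adjusted p = 0.523) and -0.01 ± 0.18 (SE, edgeR adjusted p = 0.989) in the mono/DC-like cells. The test of the difference between the populations called 55 of 10509 genes (0.523%). Retnla was at 424 CPM in telogen and 1532 CPM in the KO in mono/DC-like cells, and at 647 and 47.3 CPM in macrophages, a difference of 5.66 ± 0.49 on the log2 scale (SE, edgeR adjusted p = 8.31e-05). The higher KO mean in mono/DC-like cells came from KO S2 at 2606 CPM. KO S1, at 457 CPM, lay between the telogen libraries at 282 and 566 CPM. In macrophages both KO libraries, at 0 and 94.7 CPM, lay below telogen at 643 and 652 CPM. Of the 55 genes, 10 were called whichever library was left out.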

How the data were processed

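The authors aligned 10x Chromium 3' v3 libraries to mm10 with Cell Ranger 6.0.1 and deposited raw UMI counts per gene and barcode for each library, with Seurat 4.0 also named in the submitters' processing notes. The 6 libraries held 2283 to 6643 barcodes and 10615358 to 43317677 UMIs over 32285 genes, each barcode with at least 500 UMIs. Cells with 200 to 5000 genes and under 10% mitochondrial UMIs were kept, and 26 barcodes that met the member rule were lost to these limits. Doublets were left in and removed as an alternative (Scrublet in scanpy 1.11.5, with the 5% highest scores where it marked under 0.5%). UMIs were summed per library and population, filtered by filterByExpr, scaled by TMM and tested with edgeR 4.0.16 (glmQLFTest, R 4.3.3), with SE as the log2 fold change over the root of F. Shares of libraries were compared by exact permutation (scipy 1.17.1), and shares of cells have exact Clopper-Pearson 95% intervals. Counting intervals and the floor of 3 counts cover counting error only. DESeq2 1.42.0, other rules and filters and each library left out were alternatives. The scripts were run on simulated counts with large known changes in genes of higher counts. That run checks the code and not the calls on genes with few UMIs.

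The members and the 40 gene lists were chosen with earlier results of these data known. Named genes were drawn from a rule fixed with the lists: in each comparison up to 10 called rises and 10 called falls whose libraries did not overlap (without rule, sex-linked, ribosomal, mitochondrial and unnamed genes), called list members, the 12 highest ratios to and from macrophages, Acvrl1, Cdh5 and up to 6 interaction genes per direction. Where no gene was called, the 10 of smallest p in each direction were named after their values were seen. Aldoa, Ccl21a, Mx1 and Clec7a were not analysed here. Promoter sequences are from RefSeq (GRCm38.p6, the patch release of mm10). Coordinates are 1-based. Results on items withheld from this text are not reported here.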

Additional observations from a re-analysis of the deposited data

Results flagged for a closer look

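These genes were singled out because their log2 fold change differed between mono/DC-like cells and macrophages of the same libraries by the test of the difference (edgeR, library as a block, adjusted p under 0.05). Groups of 2 libraries allow no test for a single deviating library. A difference where 1 population had 0 UMIs depends on the prior count and is no bound.

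Between anagen and telogen, the difference (mono/DC-like cells minus macrophages) was -8.55 for Fpr2, whose UMIs in mono/DC-like cells went from 176 to 0, -6.15 for Inhba, -5.95 for Cldn10, -3.93 for Cadm1, -3.50 for Ccl8 and -3.43 for Il6. It was 9.88 for Mfap5, 8.65 for Ube2c and 8.58 for Ccnb2, each at 0 UMIs in anagen macrophages, and 5.40 for Marco, 5.39 for Igfbp6 and 4.65 for Plpp2. In anagen S1 and S2, macrophages had Inhba at 45.3 and 0 CPM and Cldn10 at 19.6 and 0 CPM. Igfbp6 was at 184 and 9.77 CPM in the mono/DC-like cells of these libraries. The high anagen values of Inhba, Cldn10 and Igfbp6 were thus those of S1. Marco, a scavenger receptor gene, was at 14.6 and 21.4 CPM in telogen mono/DC-like cells. In anagen it was at 13.5 CPM in S1, below both telogen libraries, and at 97.7 CPM in S2. In macrophages it had 450 UMIs in telogen (31.8 and 24.7 CPM) and 1 in anagen (1.03 and 0 CPM).

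Between the KO and WT telogen, the difference was -11.87 for Plac8, -11.40 for Ttc39c and -9.74 for Thbd, each at 0 UMIs in KO mono/DC-like cells, -5.06 for Cxcl3, -4.66 for Hp and -4.31 for Jaml. It was 11.01 for Clec4b1 and 10.22 for Fscn1, both at 0 UMIs in KO macrophages, 7.34 for Slc15a2, at 0 UMIs in telogen mono/DC-like cells, 5.66 for Retnla, 4.76 for Lyve1 and 4.75 for Tmem8. Fscn1 was at 570 CPM in KO S1 and 0 CPM in KO S2, so its KO level rested on 1 library of 9 cells. Lyve1 in KO mono/DC-like cells was at 0 CPM in S1 and 53.4 CPM in S2. Hp in KO macrophages was at 133 CPM in S1 and 7.01 CPM in S2. Retnla in KO mono/DC-like cells was at 457 CPM in S1, between the telogen values of 282 and 566 CPM, and at 2606 CPM in S2. These KO levels too came mainly from 1 library. The causes were not tested.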

How the results depend on the processing

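The share of mono/DC-like cells among kept cells stayed lower than in telogen when any library was left out, by -9.97 to -7.24 percentage points in anagen and -10.5 to -7.80 in the KO. Among myeloid cells the anagen difference ranged from 9.87 to 14.2, and the KO difference of -3.03 turned to 2.6 when cells with any macrophage gene were left out and ranged from -12.0 to 5.98 with libraries left out (5.98 without KO S1). The anagen count of 0 became 495 without the low-count filter and 75 with DESeq2, and ranged from 7 to 459 with libraries left out. The KO count of 144 became 65 with none of the 6 macrophage genes, 228 with the rule on thinned cells, 894 without the filter, 274 with DESeq2, 16 at equal cells and depth (359 genes tested against 9028) and 28 with all 6 libraries in 1 fit, and ranged from 81 to 1161 with libraries left out. Of the 144 genes, 143 were called without KO S1, 106 without KO S2, and 58 and 59 without WT telogen S1 and S2.

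With the replicate block 322 genes were called in the KO comparison (136 higher, 186 lower) and 0 in the anagen comparison. Same-numbered libraries did not deviate together (r = -0.031 for anagen and 0.0077 for the KO over 7599 genes), so they share only a number.

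The anagen difference between mono/DC-like cells and macrophages (142 genes) became 58 with a mitochondrial limit of 5%, 86 with at least 3 of 8 genes, 51 with none of the 6, 241 with the rule on thinned cells, 249 without likely doublets, 285 without the filter, 53 with DESeq2, 5 with all 6 libraries in 1 fit and 45 to 896 with libraries left out. The KO difference (55 genes) became 20, 33 and 27 with the 5% limit, thinned cells and without likely doublets, 213 without the filter, 141 with DESeq2, 13 with all 6 libraries and 18 to 338 with libraries left out. With at least 3 of 8 genes the log2 fold change turned to 0.25 for Chil3 in anagen, and to 0.73 for Ighm and 0.0303 for Slpi in the KO. No other of the 61 KO and 20 anagen genes turned under the settings that could test it (981 and 326 values over 17 settings). The causes were not tested. The 44 KO cells limit what depth can show.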
